A study of Rattus norvegicus with 16 samples.

Results

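The 10 genes described here encode proteins that form, coat, fill and empty lipid droplets: the fat storage-inducing transmembrane proteins Fitm1 and Fitm2, the perilipins Plin2, Plin3 and Plin4, the diacylglycerol acyltransferases Dgat1 and Dgat2, the lipases Pnpla2 and Lipe, and seipin, the product of Bscl2. They were chosen by name and selected on the measured rise of Fitm1 in NRK-52E cells at pH 6.0, and all 10 had a row among the 32623 genes of the count table. Because that rise selected them, every value of the pH comparison in NRK-52E is given here as a description, without a p-value.

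Lipid droplets store triglycerides and sterol esters in a core under a single layer of phospholipids. Triglyceride is made in the membrane of the endoplasmic reticulum, droplets bud from there with the help of Fitm proteins and seipin, perilipins cover their surface, and lipases free the fatty acids again. Proximal tubule cells burn fatty acids as a main fuel, and droplets are known to accumulate in them when fatty acid supply and use are out of balance.

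RNA sequencing covered 16 libraries from an indirect co-culture, 4 libraries for each of 4 groups. NRK-52E, an epithelial line from normal rat kidney with proximal tubule properties, grew on a permeable filter insert, and NRK-49F, a fibroblast line from normal rat kidney, grew in the well below it. The comparisons ask how the expression of these genes differs between control and acidosis medium in each line. All groups shared the co-culture and a serum-free period, after which the medium was kept at pH 7.4 (control) or at pH 6.0 (acidosis) for 48 h. The labels write pH7 and pH6, while the treatment protocol gives 7.4 and 6.0. Each cell type is thus represented by a single line in shared medium, and direct effects of the medium and effects of signals from the other line cannot be told apart. The sources do not say whether the 4 libraries of a group came from separate experiments, so p-values measure the spread between these libraries, which may be technical.

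The libraries held 16201084 to 34784862 fragments assigned to genes, and the deposited counts were converted to FPM, the fragments of a gene per 1000000 fragments of a TMM-normalized library. The names of the count columns carry a second number, 21 or 22 for the epithelial and 20 or 21 for the fibroblast libraries, whose meaning the sources used here do not give. Each number marked 2 libraries at either pH of its line. Markers separated the lines in part. Occludin (Ocln) averaged 41.2 FPM in NRK-52E at pH 7.4 and 9.67 FPM at pH 6.0, against at most 0.0991 FPM on average in NRK-49F, and Pdgfra averaged 391.9 and 368 FPM in NRK-49F at pH 7.4 and 6.0, against 0.286 and 0.0561 FPM in NRK-52E. The fibroblast collagen gene Col3a1, however, was at 6221 FPM in the epithelial and 458 FPM in the fibroblast line at pH 7.4, the epithelial keratin gene Krt8 was abundant in both lines, and Epcam, Cldn7 and Thy1 were at or near 0 in all groups. The 8 epithelial markers together had 432 to 508 FPM in NRK-52E and 785 to 949 FPM in NRK-49F at pH 7.4. At pH 6.0 they had 302 to 364 and 199 to 221 FPM. The 8 fibroblast markers had 6163 to 6391 FPM in NRK-52E and 6501 to 7507 FPM in NRK-49F at pH 7.4. At pH 6.0 they had 1840 to 3201 and 7651 to 9320 FPM.

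Promoter sequences are shown for Fitm1 and Fitm2, the paralogues whose levels moved in opposite directions in NRK-52E at pH 6.0. Plin2, which was higher at pH 6.0 in both lines, is shown as well. RefSeq windows were given for 7 of the 10 members, Fitm1, Fitm2, Plin2, Plin3, Plin4, Pnpla2 and Bscl2. They are on build GRCr8, whereas the counts were made on rn6. Each line gives the 250 bases before the annotated start, 5′ to 3′ on the gene's own strand, and capitals mark a motif match. Fitm1 lies at chr15:33034455-33034704 on the plus strand, Fitm2 at chr3:172567292-172567541 on the minus strand and Plin2 at chr5:106229019-106229268 on the minus strand.
Fitm1: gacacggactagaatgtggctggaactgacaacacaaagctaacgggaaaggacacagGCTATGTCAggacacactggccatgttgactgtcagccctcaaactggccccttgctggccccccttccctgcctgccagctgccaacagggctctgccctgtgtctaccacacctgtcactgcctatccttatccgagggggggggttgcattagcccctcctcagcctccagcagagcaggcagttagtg
Fitm2: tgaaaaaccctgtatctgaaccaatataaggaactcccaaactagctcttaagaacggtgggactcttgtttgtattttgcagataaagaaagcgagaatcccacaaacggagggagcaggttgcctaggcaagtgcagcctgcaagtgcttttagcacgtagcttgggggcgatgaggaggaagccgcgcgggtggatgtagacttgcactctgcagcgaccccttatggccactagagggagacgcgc
Plin2: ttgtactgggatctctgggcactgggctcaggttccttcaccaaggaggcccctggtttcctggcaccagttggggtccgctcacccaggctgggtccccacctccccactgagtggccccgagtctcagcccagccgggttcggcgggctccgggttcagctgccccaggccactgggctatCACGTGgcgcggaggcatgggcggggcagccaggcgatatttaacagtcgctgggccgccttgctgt

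Both strands were searched for the antioxidant response element core TGACNNNGC, the amino acid response element core TGATGNAA, the E-box CACGTG and a pair of AGGTCA half-sites 1 base apart. Fitm1 held the antioxidant response element core, read on its own strand as GCTATGTCA, from position -192 to -184 before the start, a motif that 10.1% of 33469 rat promoter windows of this length hold. Plin2 held an E-box from -67 to -62 (5.59% of windows), which the window of its other annotated start did not. The windows of the other 5 members held none of the 4 motifs, and 3.4% of all windows held TGATGNAA and 0.0508% the half-site pair. A match is a stretch of letters and not a measured binding site.

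Fitm1, a protein of the endoplasmic reticulum that binds triglyceride and is best known from skeletal muscle and heart, was almost absent outside one group. In NRK-52E at pH 7.4 its counts were 0, 0, 1 and 0, and at pH 6.0 they were 242, 289, 358 and 214. On the FPM scale the 4 acidosis libraries stood at 14.8, 12.99, 14.7 and 10.1, with a mean of 13.1 ± 2.21 (SD, n = 4), and none of the controls exceeded 0.0415. With a single count on the control side, the ratio of the summed counts, scaled by library size, was 1190 with a 95% exact conditional interval of 213 to 47031, which covers counting error only. This is the rise by which the genes were chosen.

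In NRK-49F, Fitm1 had 1, 1, 0 and 1 counts at pH 7.4 and 8, 2, 10 and 5 counts at pH 6.0, or 0.0368 ± 0.0256 and 0.242 ± 0.114 FPM. The groups did not overlap, and the ratio of the summed counts was 6.45 (95% exact interval 1.97 to 33.4), but the gene was too low for edgeR's filter in this line and did not pass in DESeq2 (log2 difference 2.68, adjusted p = 0.0555). At pH 6.0 the level in NRK-52E was 52.6 times that in NRK-49F by summed counts (35.4 to 81.6). This ratio is a description, because the NRK-52E values in it selected the genes, and its interval covers counting error only. Markers of skeletal and heart muscle were low in NRK-52E. Of the 12 listed, 10 had a row, none averaged above 1 FPM in NRK-52E, and Myod1 had no count in any library. Their sum was 1.19 to 1.87 FPM in NRK-52E at pH 7.4 and 1.93 to 3.29 FPM at pH 6.0, and it was higher, at 7.66 to 19.7 FPM, in the NRK-49F libraries, where Tnnt3 made up most of it. Their part in the Fitm1 values was not tested.

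Fitm2, the widely expressed paralogue of Fitm1, was lower in NRK-52E at pH 6.0. The controls had 13.7, 14.2, 10.53 and 12.2 FPM and the acidosis libraries 4.83, 5.80, 5.53 and 7.76 FPM. The groups did not overlap, and the log2 difference was -1.10 ± 0.18 (SE). It passed within library-name number 21 alone (-1.43) but not within number 22 (-0.79). In NRK-49F the libraries lay between 11.9 and 14.4 FPM at pH 7.4 and between 12.4 and 18.1 FPM at pH 6.0, which overlapped. The log2 difference there was 0.18 ± 0.15 (edgeR, adjusted p = 0.321). At pH 6.0 the paralogues thus stood in opposite order between the lines, Fitm1 higher in NRK-52E and Fitm2 higher in NRK-49F. The Fitm1 part of this order is a description, because its NRK-52E values selected the genes.

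**Figure D1:**
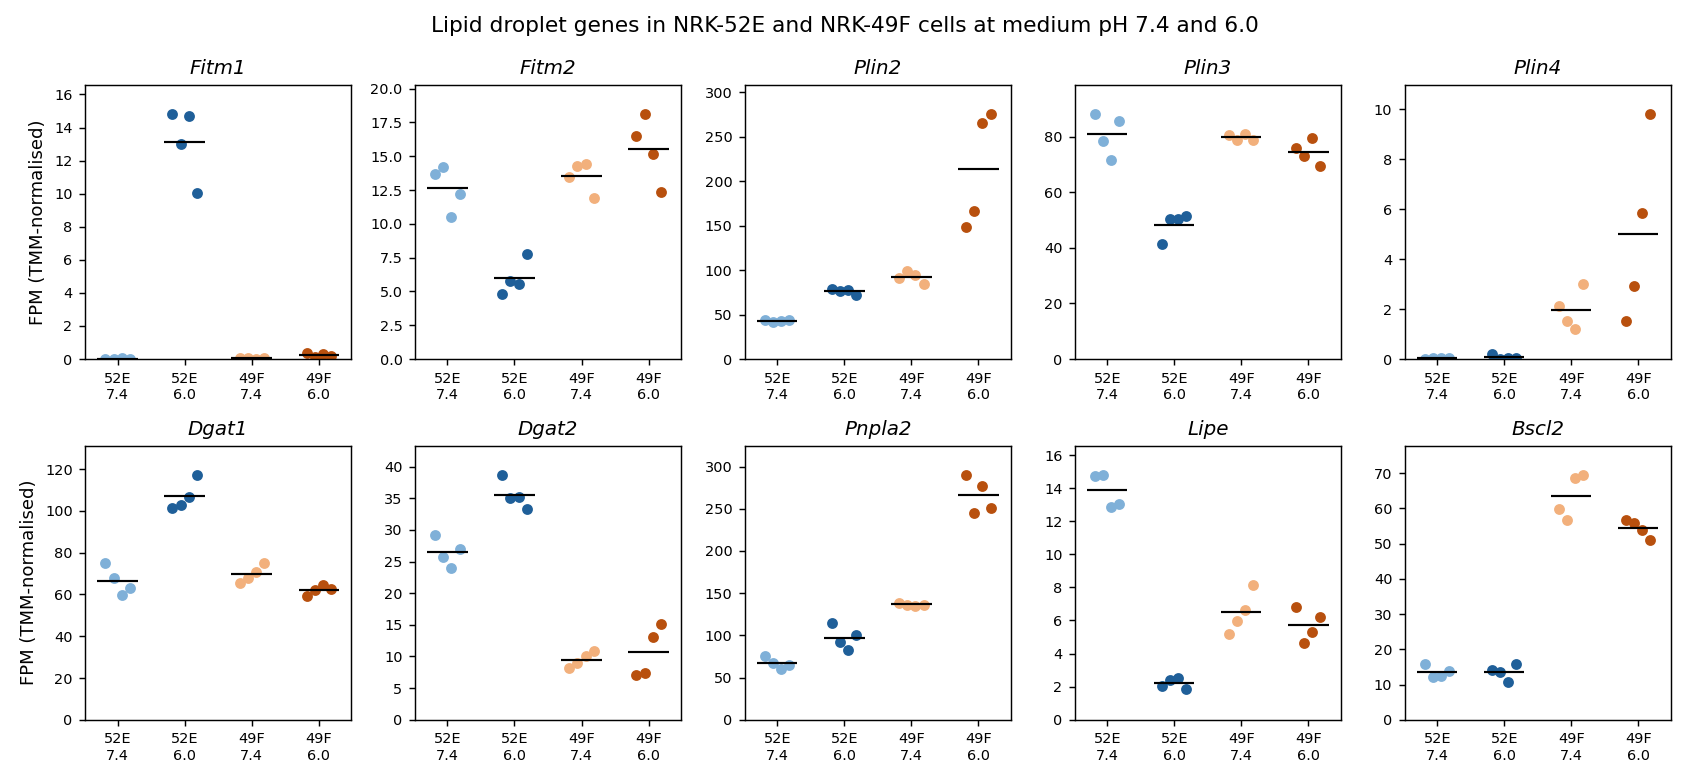
Level of each of the 10 genes in FPM (linear axis from 0, scaled per gene) in the 4 groups of cell line (52E, NRK-52E; 49F, NRK-49F) and medium pH, with a point per library and a bar at the group mean. Fitm1 stands at 10.1 to 14.8 FPM in NRK-52E at pH 6.0 and at no more than 0.354 FPM in any other library.

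Among the perilipins, Plin2, the coat protein that most non-fat cells use and that is degraded when it is not bound to a droplet, was higher at pH 6.0 in both lines. NRK-52E controls had 44.1, 41.3, 42.5 and 43.5 FPM, and the acidosis libraries 78.8, 76.8, 77.5 and 72.2 FPM. The libraries within each group lay close together and the groups were far apart, with a log2 difference of 0.81 ± 0.08 (SE). In NRK-49F the controls had 91.1, 98.7, 95.1 and 84.9 FPM, and the acidosis libraries 148, 166, 265 and 275 FPM. The groups did not overlap and the log2 difference was 1.19 ± 0.18 (edgeR, adjusted p = 0.000141), so Plin2 rose in NRK-49F.

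The 4 acidosis libraries of NRK-49F fell into 2 pairs for Plin2, and the pairs carried the same number in their names. Within number 20 the mean went from 94.9 to 157 FPM, a log2 difference of 0.73 ± 0.10 (edgeR, adjusted p = 0.000102), and within number 21 from 90.0 to 270.2 FPM, a log2 difference of 1.57 ± 0.17 (adjusted p = 0.000177). The rise was therefore present within both numbers, and the measured difference in its size did not pass an FDR of 0.01. The difference of 0.82 ± 0.18 between them had an unadjusted p of 0.000873 and an adjusted p of 0.257 in edgeR, a test added after the values were seen, in which 1 of 13859 genes (0.00722%) passed an FDR of 0.01. The 2 higher libraries were also the deepest, with 34314389 and 34784862 fragments, and the part of depth in their values was not tested.

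Plin3, a coat protein that moves from the cytosol onto young droplets, was lower in NRK-52E at pH 6.0, with 88.0, 78.5, 71.4 and 85.7 FPM in the controls and 41.2, 50.3, 50.4 and 51.6 FPM in the acidosis libraries (log2 difference -0.76 ± 0.10, SE). It passed within library-name number 21 alone (-0.90) but not within number 22 (-0.64). NRK-49F had 78.7 to 81.1 FPM at pH 7.4 and 69.3 to 79.7 FPM at pH 6.0. The ranges overlapped, and the log2 difference was -0.11 ± 0.08 (edgeR, adjusted p = 0.259).

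Plin4, a perilipin best known from fat cells and muscle, was a gene of NRK-49F in these libraries. NRK-52E had 0, 1, 1 and 1 counts at pH 7.4 and 3, 0, 1 and 1 at pH 6.0, too few for a fold. NRK-49F had 2.11, 1.516, 1.19 and 3.005 FPM at pH 7.4 and 1.51, 2.92, 5.85 and 9.79 FPM at pH 6.0. The 2 highest values were again those of number 21, and the groups overlapped. The log2 difference of 1.34 ± 0.48 had an adjusted p of 0.0341 in edgeR and 0.00948 in DESeq2, so it did not pass an FDR of 0.01 in both. Within number 20 it was 0.26 ± 0.41 (edgeR, adjusted p = 0.623) and within number 21 it was 1.83 ± 0.44 (adjusted p = 0.011). Leaving out replicate 1 of the acidosis group alone gave 1.64 and brought it past the threshold in both tools (edgeR, adjusted p = 0.00473), and over all 8 omissions the value ranged from 0.79 to 1.64.

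**Figure D2:**
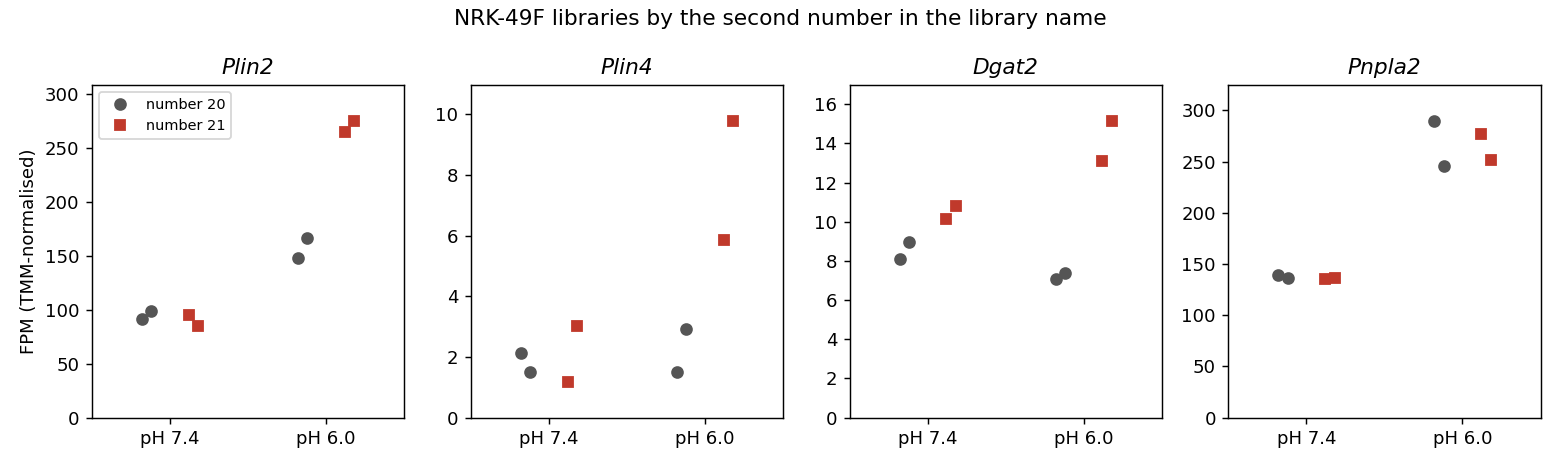
FPM (linear axis from 0) of Plin2, Plin4, Dgat2 and Pnpla2 in the 8 NRK-49F libraries at pH 7.4 and pH 6.0, with circles for number 20 and squares for number 21 in the library name. At pH 6.0 the Plin2, Plin4 and Dgat2 squares lie above the circles (265 and 275 against 148 and 166 FPM for Plin2), whereas the Pnpla2 symbols are mixed.

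The last step of triglyceride synthesis, the joining of a fatty acid to diacylglycerol, is carried out by Dgat1 and Dgat2, which are unrelated in sequence. Dgat1 was higher in NRK-52E at pH 6.0, with 75.3, 67.6, 59.7 and 63.0 FPM in the controls and 101, 103, 107 and 117 FPM in the acidosis libraries (log2 difference 0.67 ± 0.10, SE). It passed within library-name number 22 alone (0.85) but not within number 21 (0.47). NRK-49F had 65.6 to 75.0 FPM at pH 7.4 and 59.1 to 64.6 FPM at pH 6.0. These ranges did not overlap either, with the lower values at pH 6.0, but the log2 difference of -0.18 ± 0.08 did not pass (edgeR, adjusted p = 0.0814).

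Dgat2 had 29.1, 25.7, 24.0 and 27.0 FPM in NRK-52E controls and 38.7, 35.0, 35.2 and 33.2 FPM at pH 6.0. All acidosis libraries exceeded all controls, and the log2 difference of 0.40 ± 0.10 (SE) passed an FDR of 0.01 in both tools with all 8 libraries but not when any 1 of 6 of them was left out. In NRK-49F, where Dgat2 was lower, the values were 8.12, 8.94, 10.1 and 10.8 FPM at pH 7.4 and 7.08, 7.36, 13.1 and 15.2 FPM at pH 6.0. The acidosis libraries of number 20 lay below all controls and those of number 21 above them. The pooled log2 difference was 0.16 ± 0.24 (edgeR, adjusted p = 0.593), with -0.24 ± 0.19 within number 20 (adjusted p = 0.302) and 0.41 ± 0.24 within number 21 (adjusted p = 0.215). The difference between the numbers was 0.64 ± 0.27 (adjusted p = 0.474).

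Lipolysis begins with Pnpla2, the adipose triglyceride lipase, and continues with Lipe, the hormone-sensitive lipase, which cleaves diacylglycerol and sterol esters. Pnpla2 was higher at pH 6.0 in both lines. NRK-52E had 76.0, 67.6, 60.4 and 64.5 FPM in the controls and 114, 92.6, 82.1 and 100.4 FPM in the acidosis libraries (log2 difference 0.52 ± 0.12, SE). It no longer passed in NRK-52E without replicate 3 or replicate 4 of the controls (0.45 and 0.48), when libraries were scaled by their totals (0.31), or within either library-name number alone (0.49 and 0.53). NRK-49F had 139, 136, 135 and 136 FPM at pH 7.4 and 290.0, 245, 277 and 251 FPM at pH 6.0. The groups were well apart, the log2 difference was 0.95 ± 0.09 (edgeR, adjusted p = 3.34e-06), and Pnpla2 rose within number 20 (0.96 ± 0.09, adjusted p = 1.40e-05) as within number 21 (0.94 ± 0.17, adjusted p = 0.00255).

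Lipe had the largest fall of the 10 genes in NRK-52E. Its values were 14.8, 14.8, 12.9 and 13.04 FPM in the controls and 2.02, 2.38, 2.50 and 1.88 FPM in the acidosis libraries, a log2 difference of -2.67 ± 0.16 (SE). In NRK-49F it had 5.20, 5.96, 6.65 and 8.14 FPM at pH 7.4 and 6.82, 4.64, 5.30 and 6.19 FPM at pH 6.0. These overlapped (log2 difference -0.19 ± 0.19; edgeR, adjusted p = 0.427). The 2 lipases thus stood in opposite directions in NRK-52E at pH 6.0, the first enzyme of the sequence higher and the second lower.

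Bscl2 encodes seipin, which holds the contact between a growing droplet and the endoplasmic reticulum. NRK-52E had 12.2 to 15.7 FPM at pH 7.4 and 10.7 to 15.8 FPM at pH 6.0 (log2 difference -0.02 ± 0.16, SE). NRK-49F had 59.8, 56.8, 68.5 and 69.4 FPM at pH 7.4 and 56.8, 55.7, 53.9 and 51.0 FPM at pH 6.0. The NRK-49F log2 difference was -0.24 ± 0.10 (edgeR, adjusted p = 0.0524), from -0.05 within number 20 and -0.41 within number 21.

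Apart from Fitm1, which selected the genes, 8 members passed edgeR's filter in NRK-52E. Of these 4 were higher (Plin2, Dgat1, Dgat2 and Pnpla2) and 3 were lower (Fitm2, Plin3 and Lipe) at an FDR below 0.01 in both edgeR and DESeq2. Of all 13735 genes tested in this line, 56.7% passed, 28.2% higher and 28.5% lower, and nothing is read from the members' count because the list was selected in this comparison. The median log2 difference was 0.19 for these 8 members and 0.00 for all genes. In bulk RNA, fewer cells of a kind and less RNA per cell cannot be told apart.

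In NRK-49F, Plin2 and Pnpla2 were the members that passed, both higher, of 9 tested. Among 13339 genes 37.8% passed, 18.4% higher and 19.4% lower, and a count this small says nothing about how the members compare with other genes. The members' median log2 difference was 0.16, against -0.00 for all genes.

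**Figure D3:**
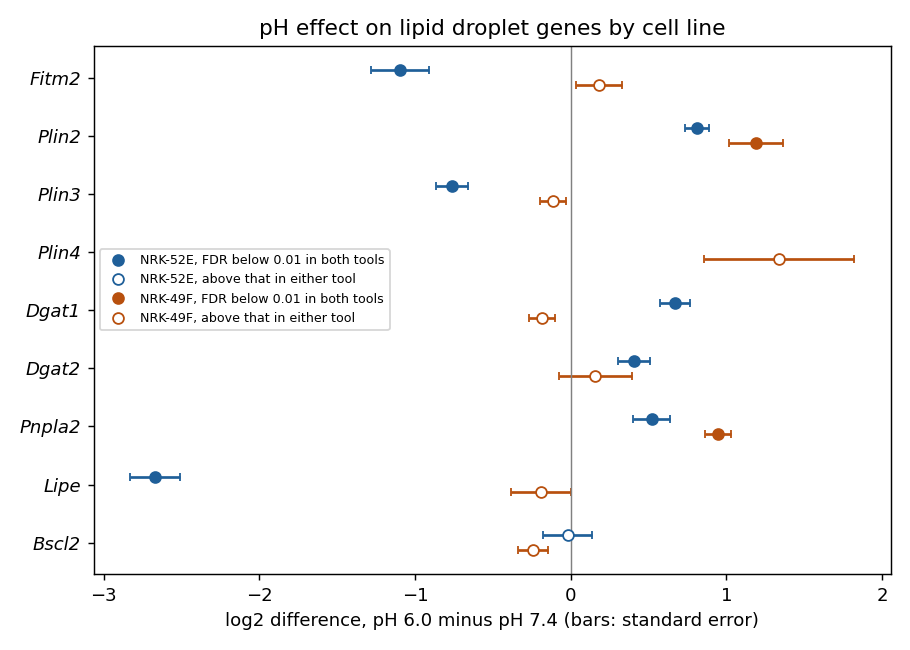
Log2 difference between pH 6.0 and pH 7.4 with its standard error for 9 members in NRK-52E and NRK-49F (filled symbols, FDR below 0.01 in both edgeR and DESeq2). Fitm1 is left out because its controls had hardly a count, and Plin4 passed the filter on low counts only in NRK-49F. Plin2 and Pnpla2 lie to the right in both lines, whereas Fitm2, Plin3 and Lipe lie to the left in NRK-52E (-1.10, -0.76 and -2.67) and near 0 in NRK-49F.

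Whether the pH effects differed between the lines was tested as an interaction over the 16 libraries. This test contains the NRK-52E pH comparison in which the genes were selected, and its p-values are not independent of that selection. The effect was more negative in NRK-52E for Lipe, by -2.49 ± 0.25 on the log2 scale (edgeR, adjusted p = 3.67e-07), for Fitm2, by -1.29 ± 0.23 (adjusted p = 0.000173), and for Plin3, by -0.66 ± 0.13 (adjusted p = 0.000311). It was more positive in NRK-52E for Dgat1, by 0.84 ± 0.12 (adjusted p = 2.17e-05). For Plin2 the difference of -0.39 ± 0.21 did not pass (adjusted p = 0.126), nor did that of Pnpla2, -0.44 ± 0.15 (adjusted p = 0.0173), Dgat2, 0.23 ± 0.27 (adjusted p = 0.511), or Bscl2, 0.21 ± 0.17 (adjusted p = 0.327). The interaction of Plin4 rests on 8 counts in NRK-52E and is not read.

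Without Fitm1, whose values selected the genes, 4 of 9 members passed the interaction at an FDR of 0.01 in edgeR, beside 37.0% of 14679 genes. Of all genes tested 19.4% passed with the more positive effect in NRK-52E, as did 1 of the members, and 17.6% with the more positive effect in NRK-49F, as did 3. Among all genes that passed, 52.3% had the more positive effect in NRK-52E, and 33.7% had it when libraries were scaled by their totals alone.

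At pH 7.4 the lines already differed in 6 of the 9 members tested, beside 66.6% of 14026 genes (33.3% higher in the epithelial line, 33.3% in the fibroblasts). Higher in NRK-52E were Dgat2, by a log2 difference of 1.56 ± 0.12 (edgeR, adjusted p = 2.77e-07), and Lipe, by 1.17 ± 0.15 (adjusted p = 2.57e-05). Lower in NRK-52E were Bscl2 (-2.15 ± 0.11, adjusted p = 6.88e-09), Plin2 (-1.03 ± 0.07, adjusted p = 1.60e-07) and Pnpla2 (-0.94 ± 0.07, adjusted p = 3.83e-07). Plin4 also passed, and by summed counts (161 against 3) its level in NRK-49F was 62.7 times that in NRK-52E (95% exact interval 21.1 to 307). Fitm2, Plin3 and Dgat1 had log2 differences of -0.01 ± 0.13, 0.10 ± 0.08 and 0.01 ± 0.08 and did not pass (adjusted p = 0.932, 0.235 and 0.924).

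At pH 6.0 the 9 members other than Fitm1 passed, 2 higher in NRK-52E and 7 higher in NRK-49F, beside 59.8% of 13796 genes (28.6% and 31.3%). Dgat2 (1.71 ± 0.23, adjusted p = 3.12e-05 in edgeR) and Dgat1 (0.77 ± 0.10, adjusted p = 1.60e-05) were higher in NRK-52E. Higher in NRK-49F were Bscl2 (-2.02 ± 0.14, adjusted p = 8.22e-08), Pnpla2 (-1.46 ± 0.12, adjusted p = 5.22e-07), Plin2 (-1.50 ± 0.19, adjusted p = 1.34e-05), Lipe (-1.40 ± 0.23, adjusted p = 0.000139), Fitm2 (-1.39 ± 0.20, adjusted p = 5.27e-05) and Plin3 (-0.64 ± 0.11, adjusted p = 0.000199). Plin4 was 95.8 times higher in NRK-49F by summed counts (571 against 5, interval 40.8 to 296). Single libraries moved this ratio, to 193 without replicate 1 of NRK-52E, which held 3 of the 5 counts, and to 63.5 without replicate 4 of NRK-49F. Lipe changed its order between the lines, being the higher in NRK-52E at pH 7.4 and the lower there at pH 6.0, and Dgat1, Fitm2 and Plin3 differed between the lines at pH 6.0 and did not pass at pH 7.4. These comparisons share libraries with the pH comparisons and are not independent of them.

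Other genes of lipid storage were read from 6 lists with 90 genes, of which 85 had a row and 66 were tested in each line. At pH 6.0, 39 passed in NRK-52E (27 higher and 12 lower, median log2 difference 0.26), where 56.7% of all genes did, and 24 in NRK-49F (16 higher and 8 lower, median 0.23), where 37.8% did. The medians over all genes were 0.00 and -0.00, and the shares of listed genes that passed lay near those of all genes. The lines differed at pH 7.4 in 45 of 66 genes tested (22 higher in NRK-52E; 66.6% of all genes), at pH 6.0 in 42 of 67 (24 higher in NRK-52E; 59.8%), and in the pH effect itself in 28 of 69 (37.0%). The counts of each list are to be read against 28.2% of all genes higher and 28.5% lower in NRK-52E, and 18.4% higher and 19.4% lower in NRK-49F.

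Genes of triglyceride synthesis were mostly higher where they passed, 7 against 2 lower of 16 tested in NRK-52E and 7 against 2 of 17 in NRK-49F. Lpin1, which makes diacylglycerol from phosphatidic acid, went from 17.8 ± 3.07 to 48.9 ± 12.2 FPM in NRK-52E (SD, n = 4), a log2 difference of 1.43 ± 0.20 (SE). It also rose in NRK-49F, by 0.94 ± 0.20 (edgeR, adjusted p = 0.00191). Gk, the glycerol kinase, was lower in NRK-52E, 69.4 ± 2.78 against 22.4 ± 7.18 FPM (-1.65 ± 0.19), and rose in NRK-49F from 12.8 ± 1.48 to 36.8 ± 11.7 FPM (1.519 ± 0.19; edgeR, adjusted p = 4.56e-05). Agpat4, an acyltransferase, had the reverse pattern, higher in NRK-52E (0.96), whereas in NRK-49F it fell from 117 ± 7.97 to 59.1 ± 5.76 FPM (-1.002 ± 0.09, adjusted p = 4.16e-06). The difference between the lines passed for Gk (-3.18 ± 0.29, adjusted p = 9.74e-08) and Agpat4 (1.95 ± 0.16, adjusted p = 3.90e-08).

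Genes of the droplet coat and its regulators went both ways, 7 higher and 5 lower of 15 tested in NRK-52E (median -0.04) and 2 higher and 4 lower of 15 in NRK-49F (median -0.09). Hilpda, an inhibitor of Pnpla2, rose in NRK-49F from 15.46 ± 1.24 to 45.6 ± 3.74 FPM (1.55 ± 0.11; edgeR, adjusted p = 5.53e-07), in the same libraries in which Pnpla2 rose. Hilpda was also higher in NRK-52E, by 0.84 ± 0.16 (SE). Hsd17b13, a droplet-bound enzyme, went from 5.00 ± 1.05 to 14.2 ± 3.88 FPM in NRK-52E. It also rose in NRK-49F, by 1.16 ± 0.32 (edgeR, adjusted p = 0.00829). The caveolar genes of the list were lower in both lines. Cav1 in NRK-52E went from 905 ± 35.4 to 279 ± 67.4 FPM (-1.72 ± 0.16, SE), and its difference in NRK-49F was -0.80 ± 0.11 (edgeR, adjusted p = 0.000102). Cavin1 in NRK-49F went from 986 ± 109 to 365 ± 9.82 FPM (-1.45 ± 0.10, adjusted p = 5.71e-07), and its difference in NRK-52E was -0.65 ± 0.08 (SE). Plin1, the perilipin of fat cells, had no count in any NRK-52E library. The 6 adipocyte markers together, Plin1 among them, reached at most 0.989 FPM in any library.

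In the list of lipolysis, lipophagy and lipid export, 1 gene was higher and 3 were lower of 6 tested in NRK-52E (median -0.29), and 2 were higher and none lower of 5 in NRK-49F (median 0.31). Abhd5, the coactivator of Pnpla2, was higher in NRK-52E, 33.1 ± 3.09 against 49.02 ± 8.12 FPM (0.55 ± 0.14, SE). It also rose in NRK-49F, by 0.94 ± 0.11 (edgeR, adjusted p = 2.38e-05). Prkar2b, a regulatory subunit of the kinase that activates Lipe, was lower in NRK-52E, 8.59 ± 0.79 against 2.02 ± 0.86 FPM (-2.10 ± 0.28). Lipa, the acid lipase of the lysosome, rose in NRK-49F from 219.8 ± 6.75 to 455 ± 29.7 FPM (1.03 ± 0.09; edgeR, adjusted p = 1.74e-06).

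Of the genes of fatty acid uptake and binding, 9 were tested in each line, and the median log2 difference was 0.25 for NRK-52E and 0.17 for NRK-49F. In NRK-52E 1 passed as higher and 1 as lower, and in NRK-49F 2 passed as higher and 1 as lower. Lpl, the lipoprotein lipase, was lower in NRK-52E, 6.44 ± 1.524 against 1.69 ± 0.57 FPM, and the fatty acid transporter Slc27a1 fell in NRK-49F from 65.0 ± 7.40 to 46.6 ± 3.84 FPM (-0.50 ± 0.10; edgeR, adjusted p = 0.00132).

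Of 6 genes of sterol ester storage tested in NRK-52E, 2 were higher, with Lcat, which esterifies cholesterol in plasma, from 25.4 ± 4.78 to 78.6 ± 12.2 FPM, and 1 was lower, Nceh1, a sterol ester hydrolase, from 59.2 ± 5.32 to 46.6 ± 1.57 FPM (median of the list -0.28). In NRK-49F 1 of 5 passed, the lysosomal cholesterol exporter Npc1, which rose from 61.7 ± 14.6 to 93.4 ± 11.2 FPM (0.58 ± 0.15; edgeR, adjusted p = 0.00616; median 0.23).

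Among transcription factors that act on droplet genes, 9 were higher and none lower of 14 tested in NRK-52E (median 0.57; 28.2% and 28.5% of all genes), and 2 were higher and 1 lower of 15 in NRK-49F (median 0.26). Ddit3, a stress-response factor, was higher in NRK-52E, 41.3 ± 4.23 against 219 ± 54.4 FPM (2.39 ± 0.17, SE). In NRK-49F Ppard, a fatty acid receptor, rose from 40.9 ± 7.11 to 59.8 ± 4.66 FPM (0.53 ± 0.12 in edgeR, adjusted p = 0.00249). Ppard was also higher in NRK-52E, by 1.05 ± 0.12 (SE). Tfeb, a lysosome regulator, fell in NRK-49F from 27.0 ± 1.999 to 14.4 ± 2.24 FPM (-0.92 ± 0.13 in edgeR, adjusted p = 0.000117).

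**Figure D4:**
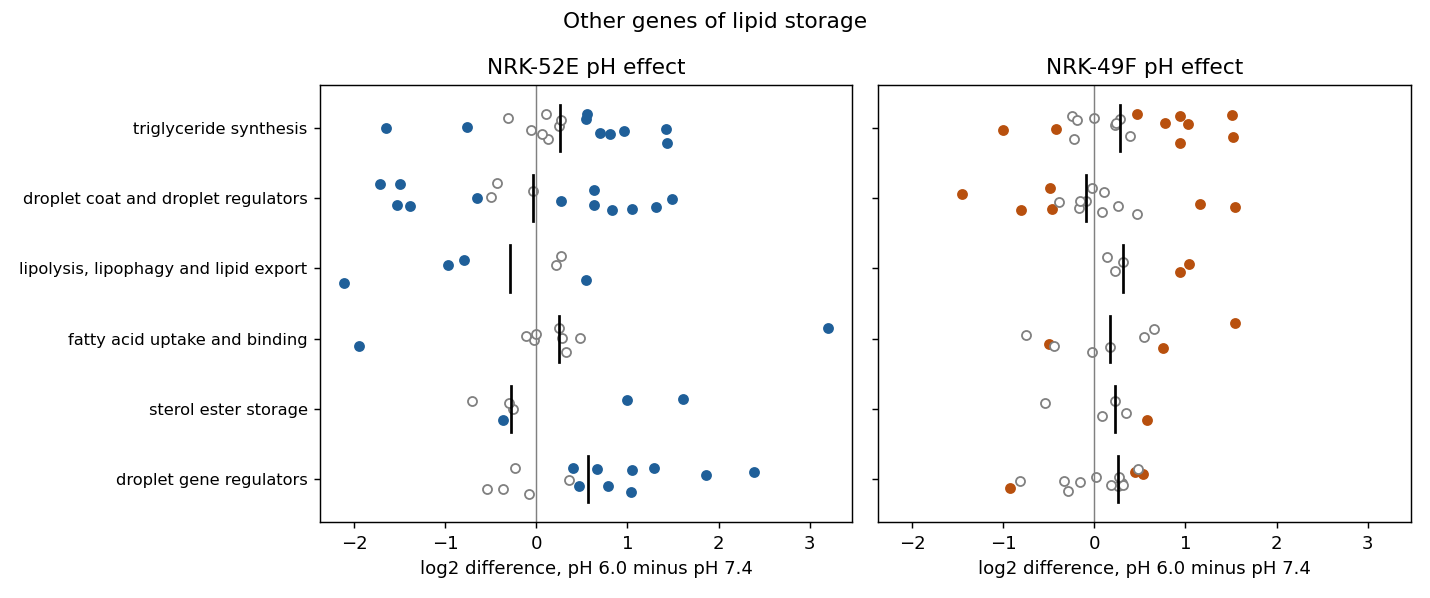
Log2 difference between pH 6.0 and pH 7.4 for the genes of the 6 lists in NRK-52E (left) and NRK-49F (right), with a point per gene tested, filled where the FDR was below 0.01 in both edgeR and DESeq2, and a black bar at the median of each list. The list of droplet gene regulators has the highest median in NRK-52E (0.57), with 9 filled points above 0 and none below.

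Fitm1 was compared with 12115 genes that had a mean of at least 1 FPM in a group. Genes with clone, locus or database identifiers in place of a name were left out. The genes whose pattern was most like that of Fitm1 were named by Pearson's r of log2(FPM + 1) over the 16 libraries. The value is a description, since the libraries form 4 groups and Fitm1 was high in only 1 of them. The highest were Col2a1 (0.996), Aifm2 (0.994), Sdr9c7 (0.991), Usp20 (0.991), Ctsk (0.991) and Tekt3 (0.990). Col2a1, a cartilage collagen gene, had the same on-and-off shape, with 0.0515 and 16.1 FPM at pH 7.4 and 6.0 in the epithelial line and 0.0126 and 0.339 FPM in the fibroblast line. Ctsk, a lysosomal cathepsin, had 1.42 and 45.6 FPM in the epithelial and 1.83 and 2.69 FPM in the fibroblast line. Aifm2, an oxidoreductase found on lipid droplets that protects against lipid peroxidation, was expressed in all groups, with 48.3 and 117 FPM in the epithelial and 47.5 and 50.7 FPM in the fibroblast line.

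The neighbours of Fitm1 by RefSeq order on GRCr8 were mostly expressed in all 4 groups. On one side lie Pck2, Dcaf11 and LOC102552219, the last not analysed here, and on the other Psme1, Emc9 and Psme2. Pck2 had 51.9 ± 3.56 and 53.5 ± 12.3 FPM in NRK-52E at pH 7.4 and 6.0, and Dcaf11 had 100.2 ± 3.07 and 112 ± 7.36 FPM. Psme2, a subunit of the proteasome activator, had 84.3 ± 12.4 and 171 ± 18.1 FPM in NRK-52E and 223 ± 34.2 and 193 ± 17.3 FPM in NRK-49F. Emc9 had 3.92 ± 0.84 and 4.98 ± 1.01 FPM in NRK-52E, and Psme1 averaged 0.0397 to 0.142 FPM over the groups.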

How the data were processed

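Poly(A)-enriched RNA of 16 libraries was sequenced by the authors as read pairs, mapped to the rat genome rn6 and counted over the exons of Ensembl genes with featureCounts. The study's methods name tophat2 as the aligner and the submitters' processing notes HISAT2 2.1.0. Fragments mapping to several places were counted at each, so genes with near-identical copies are uncertain, and the use of strand is not given in the sources used here. The deposited values are raw counts, without normalization or filter.

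From these counts FPM values were computed with edgeR's cpm function and TMM factors over all libraries. For each comparison the 8 libraries concerned were tested over all genes with edgeR 4.0.16 (quasi-likelihood test, filterByExpr) and DESeq2 1.42.0 in R 4.3.3, with Benjamini-Hochberg adjustment. A gene passed at an FDR below 0.01 in both, as in the study, and for the interaction over 16 libraries in edgeR alone. Log2 differences, standard errors (absolute log2 difference divided by the square root of F) and adjusted p-values are edgeR's. The fits of the NRK-52E pH comparison and of the interaction were tested on simulated data with a small set of changed genes. That setting does not test the normalization where a large share of genes differ. Library totals of 16201084 to 34784862 set the precision, and count intervals (95%) cover counting error only. Means are given with SD over 4 libraries.

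Named were all 10 members, the called gene with the largest rise and the largest fall of each list in each line (1 FPM or more at either pH), the 6 genes most like Fitm1, and 3 annotated neighbours on either side. A gene picked by this rule is left out here. Agpat4 in NRK-52E, Plin1 and the marker genes were named after their values were seen. The members and lists were chosen with earlier results of these data known, so no list is independent support. Other settings tried were size factors from DESeq2 and plain library totals, no filter or at least 1 CPM in 4 libraries, a joint fit of all libraries, edgeR or DESeq2 alone, an FDR of 0.05, the second number of the library names as covariate or split, and each library left out in turn. Counts of members without Fitm1 and count ratios without single libraries were added after the data were seen. Gene lengths were not used, so levels are not compared between genes.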

Additional observations from a re-analysis of the deposited data

Results flagged for a closer look

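The pH effect, as the log2 difference between pH 6.0 and pH 7.4, differed between the lines by the interaction test in edgeR for Lipe (NRK-52E minus NRK-49F, -2.49), Fitm2 (-1.29), Plin3 (-0.66) and Dgat1 (0.84). Fitm1 was left out because its values selected the genes.

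By Dixon's criterion a library stood far from the other three of its group in 3 of the 40 groups of 4, where about 2 are expected by chance. Replicate 1 of NRK-52E at pH 6.0 had 41.2 FPM of Plin3, below the rest of its group. The other flags concern genes at the limit of detection in NRK-52E at pH 7.4: Fitm1 at 0.0415 FPM (a single count) in replicate 3, and Plin4 at 0 FPM in replicate 1.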

How the results depend on the processing

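Leaving out each library in turn gave 6 to 8 members that passed in NRK-52E, 2 to 3 in NRK-49F, 6 at pH 7.4, 10 at pH 6.0 and 5 to 6 for the interaction, Fitm1 included where it passed the filter, and the same ranges held under the other settings except the split by number. Within number 21 of NRK-52E 5 members passed and within number 22 4, each with 4 libraries; at FDR 0.05, 37 instead of 24 listed genes passed in NRK-49F. Of all genes, 5244 of 13903 passed within number 21 of NRK-52E and 2820 of 13952 within number 22 (7793 of 13735 in all 8 libraries). Within number 21 of NRK-49F 1980 of 13861 passed (5039 of 13339 in all 8). With single libraries left out, 6789 to 8914 of all genes passed in NRK-52E and 4125 to 4992 in NRK-49F. Between the lines 8562 to 9325 passed at pH 7.4, 7487 to 9263 at pH 6.0 and 4708 to 5973 for the interaction.

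In NRK-52E, scaling by library totals moved the median of all genes by -0.21 and left Dgat2 (0.20) and Pnpla2 (0.31) short of the threshold. Without a filter (0.38) or with all libraries in one fit (0.39) Dgat2 fell short too, and without replicate 3 or 4 of the controls Pnpla2 did (0.45 and 0.48). With library totals the median of all genes was 0.34 at pH 7.4, 0.12 at pH 6.0 and -0.25 in the interaction. With TMM factors these medians were 0.03, -0.03 and -0.01. Signs turned only for members that had not passed. These were Bscl2 in NRK-52E within number 22 (0.000607; -0.11 to 0.0905 leaving out a library), Dgat2 and Lipe in NRK-49F within number 20 (-0.24 and 0.0531; Dgat2 -0.0527 to 0.32 leaving out a library), Fitm2 at pH 7.4 with library totals (0.29) or the number as covariate (0.15; -0.0750 to 0.0579), Dgat1 at pH 7.4 without a filter (-0.0022) or with all libraries (-0.0732; -0.0566 to 0.0488), and Dgat2 (-0.0087) and Bscl2 (-0.0351) in the interaction with library totals. By library totals 16 of the 40 group levels moved by more than 1 SD, and levels over 1 FPM lay at 0.903 to 1.18 times the FPM values. The interaction of Pnpla2 passed with library totals (-0.68), in DESeq2 alone (-0.45), and without replicate 1 of NRK-52E at pH 6.0 (-0.64). The cause of these changes was not tested. The covariate fit between lines treats number 21 as the same level in both. The other numbers do not occur in both lines, so this fit takes the line difference from the number 21 libraries alone. The labels give no replicate numbers that pair libraries. With the second number of the library names as a covariate, 8 members passed in NRK-52E, 2 in NRK-49F, 6 at pH 7.4, 10 at pH 6.0 and 5 for the interaction, the counts without it. Of all genes, 7714 of 14044, 5279 of 13565, 7561 of 14636, 6816 of 14539 and 5284 of 14979 passed in these fits. Depth limits Fitm1 outside NRK-52E at pH 6.0 and Plin4 in NRK-52E, where 3 counts in a library correspond to 0.0938 to 0.199 FPM over the 16 libraries.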
